A study of Drosophila melanogaster with 6 samples.

Results

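The mitochondrial ribosomal protein genes of Drosophila melanogaster were examined in S2* cells with and without 20-hydroxyecdysone (20E), the insect steroid hormone of moulting and metamorphosis. The genes were chosen by name, as those whose symbol begins with mRpL or mRpS followed by a digit and whose probe set is annotated with 1 gene. This gave 71 probe sets for 69 genes of the 11982 genes named on the arrays, with 44 genes of the large subunit (mRpL) and 25 of the small subunit (mRpS). The gene table used here holds 73 such genes, and mRpL34, mRpL37, mRpL53 and mRpS10 were not analysed here. The compared groups were 3 samples of S2* cells given 20E at 1 µM for 24 h and 3 samples of untreated S2* cells. Total RNA of each sample was measured on 1 Affymetrix Drosophila 2.0 array. S2* is a variant of the S2 line, an embryonic, macrophage-like cell line kept in culture, and it stands here for 1 cell line only. The labels give no solvent and no time for the untreated samples, so effects of solvent and of time in culture cannot be told apart from those of the hormone. Nor do they tell whether the replicates were grown apart, and the p-values therefore measure only how these 6 samples vary, a spread that can be technical.

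Mitochondria carry their own ribosomes, which make the few proteins encoded by mitochondrial DNA, all in the fly being subunits of the respiratory chain and ATP synthase. The ribosomal RNAs come from mitochondrial DNA, whereas every mitochondrial ribosomal protein is encoded in the nucleus, made in the cytosol and imported. Part of these proteins belong to families shared with bacterial ribosomes, and the others exist only in mitochondria. The large subunit joins amino acids and threads the new chain through an exit tunnel, and the small subunit holds the messenger RNA and reads its codons.

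Each probe set has 1 normalized intensity per array, in arbitrary units that can be compared between arrays but not between probe sets. Differences are given on the scale of log2(normalized intensity + 16), as 20E minus untreated. A gene is said to have fallen or risen where limma, fitted over all 18767 probe sets tested, gave a Benjamini-Hochberg adjusted p under 0.05. Deposited array medians ran from 49.4 to 56.4 in 20E samples and from 43.2 to 51.9 in untreated samples before normalization. The array of 20E replicate 2 stood apart, with 456 empty cells, 968 values below 0 and correlations across probe sets of 0.867 to 0.877 with the other 20E arrays, which correlated with each other at 0.952. Untreated replicate 1 correlated at 0.881 and 0.916 with the other untreated arrays, which correlated with each other at 0.955. As a check of the labels, 7 of 14 probe sets for 9 ecdysone-response genes had risen and 1, that of Kr-h1, had fallen. Hsp27 averaged 2766 units in 20E cells and 37.7 in untreated cells (limma adjusted p = 3.81e-05). Among 10 measured haemocyte marker genes 4 had risen and 1 had fallen, with summed levels of 6560 to 9685 units in 20E cells and 7087 to 8753 in untreated cells. The fallen gene, Nplp2, averaged 101 units in 20E cells and 5167 in untreated cells (limma adjusted p = 2.62e-05). Without it the summed level of the other 9 was 6463 to 9577 units in 20E cells and 2006 to 3328 in untreated cells. The risen genes were srp, Col4a1, vkg and crq, of which srp averaged 1576 units in 20E cells and 308 in untreated cells. He averaged 11.9 units in 20E cells and 9.60 in untreated cells, and eater at most 12.8 in either group, so both were near 0. The part of these changes in the results was not tested. Of 15 markers of neurons, muscle, salivary gland, fat body and germ line, 11 were measured and none passed the test. Their summed level was 2316 to 4081 units in 20E cells and 2525 to 6879 in untreated cells, most of it from Mlc2, and its part in the results was not tested.

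The transcripts of mitochondrial ribosomal proteins were lower in 20E cells almost throughout the set. The difference was below 0 for 68 of 71 probe sets, against 52.1% of all probe sets tested, and the median over the 69 genes was -0.71, against -0.02 over all probe sets. A median difference of this size corresponds to 61.3% of the untreated value. In 20E cells 10 probe sets, each of a different gene, had fallen and none had risen, or 14.1% of the members, where 2.08% of all probe sets tested had fallen and 3.02% had risen. The genes were mRpL35, mRpL17, mRpL51, mRpL14 and mRpL10 of the large subunit and mRpS26, mRpS31, mRpS14, mRpS35 and mRpS30 of the small subunit. The remaining 61 differences, none of which passed, ran from -1.24 to 0.36.

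All 71 member probe sets lay at or above the median level of the arrays, where 3.71% of probe sets had fallen and 52.9% of differences were below 0. At an unadjusted p under 0.05 the counts were 43 lower and none higher, or 60.6% of the members, against 8.4% of all probe sets and 12.5% of those at or above the median level. In 51 of the 70 member probe sets without an empty cell, or 72.9%, every 20E value lay below every untreated value. The same held for 12.3% of all probe sets and 16.7% of those at or above the median level. No member had all 20E values above the untreated values, as 10.4% of all probe sets had.

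The count of calls depended on each array but that of 20E replicate 2. It was 1 without 20E replicate 1 and 1 without 20E replicate 3, where 0.783% and 0.784% of all probe sets were called lower. It was 2 without untreated replicate 1 and 1 without untreated replicate 2, where that share was 1.41% and 0.746%. Without untreated replicate 3 limma called 0 members, with 34 lower and none higher at an unadjusted p under 0.05 and 0.496% of all probe sets called lower. Without 20E replicate 2 the count was 9, of which 7 were among the 10, and 2.13% of all probe sets were called lower. With that array and untreated replicate 1 both left out, 11 members had fallen, 8 of them among the 10, beside 4.44% of all probe sets. The direction moved less, since 66 to 69 of the 71 differences were below 0 when any 1 array was left out, and the median over the genes stayed between -0.83 and -0.62.

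**Figure D1:**
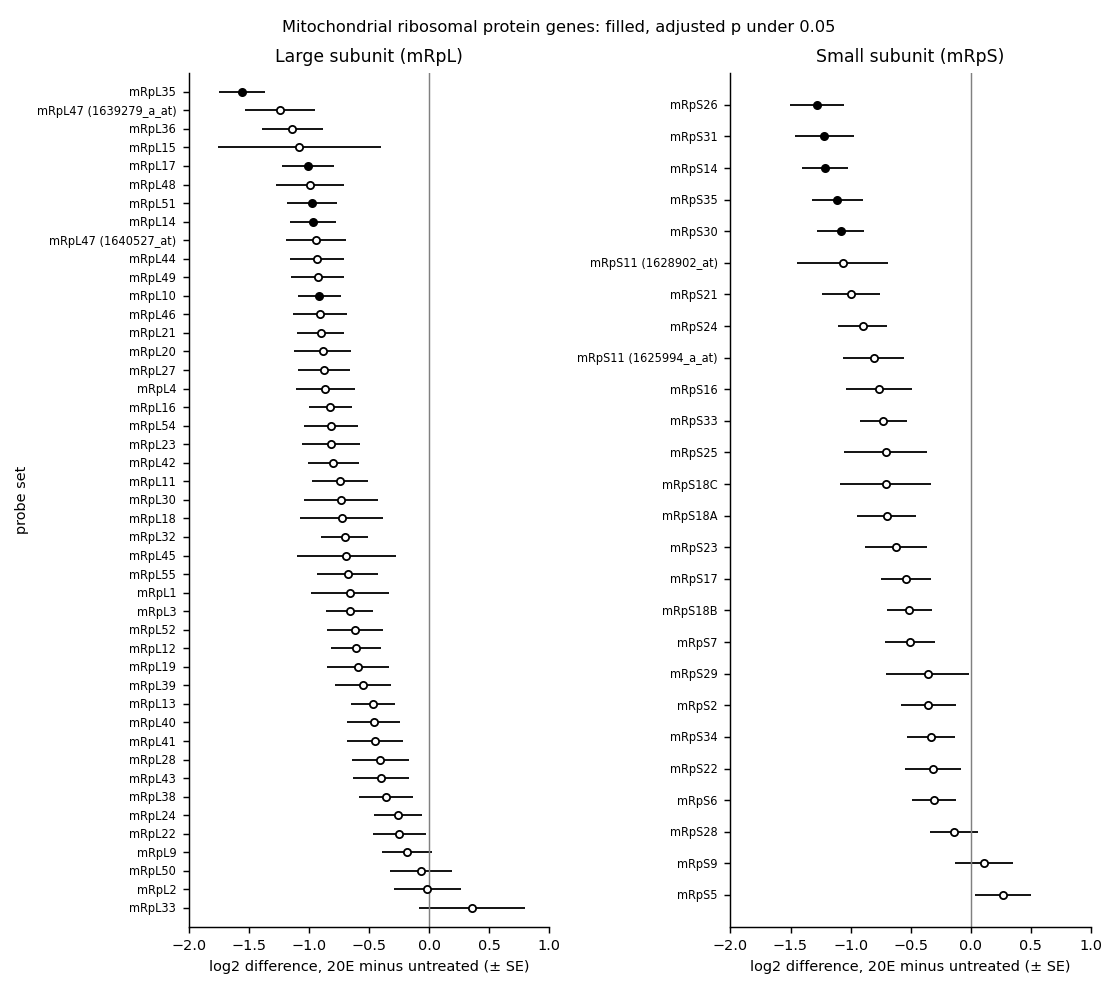
The log2 difference of each of the 71 member probe sets is plotted, 20E minus untreated, as a point with its standard error from limma, with the large subunit on the left and the small subunit on the right. Filled points are the 10 probe sets with an adjusted p under 0.05; 68 of the 71 points lie left of 0.

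The lower level was seen on each of the 20E arrays. Relative to the untreated mean of each probe set, the median over genes was -0.74, -0.79 and -0.52 on 20E replicates 1, 2 and 3, against 0.15, -0.11 and -0.04 on untreated replicates 1, 2 and 3. The 2 groups of array medians did not overlap, and 20E replicate 3 was the 20E array nearest to the untreated ones. On the 20E arrays 67, 63 and 66 of the 69 genes were below their untreated mean, against 15 of 69, 56 of 68 and 44 of 69 on the untreated arrays. After normalization, untreated replicate 1 was the highest of the untreated arrays. As deposited, before normalization, the median over member probe sets was 177, 181 and 253 units on the 20E arrays and 274, 297 and 281 on the untreated arrays. Untreated replicate 1 was thus the lowest of the untreated arrays as deposited. In bulk RNA, fewer cells with a transcript and less of it per cell cannot be told apart.

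**Figure D2:**
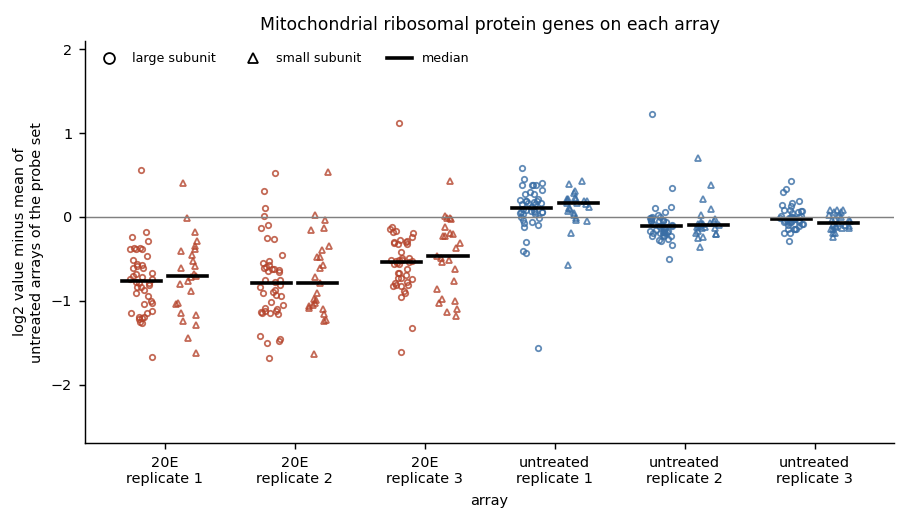
For each array, the log2 value of each gene minus the mean of its untreated arrays is plotted, with circles for the large subunit, triangles for the small subunit and bars for medians. The 20E arrays are on the left and the untreated arrays on the right; the medians of the 20E arrays lie between -0.79 and -0.46 and those of the untreated arrays between -0.11 and 0.16.

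Between the subunits the medians were close. The median difference was -0.73 over the 44 large subunit genes and -0.70 over the 25 small subunit genes. The gap between these medians was -0.03. The SD of the array medians within groups was 0.13 for the large and 0.16 for the small subunit. Both subunits were measured on the same arrays, so a shift shared by them adds to these SDs but cancels in the gap. On single arrays the large subunit median minus the small subunit median ran from -0.07 to -0.0014 in 20E samples and from -0.05 to 0.05 in untreated samples. In the large subunit 5 of 45 probe sets had fallen, 44 differences were below 0, and 33 of 44 without an empty cell did not overlap. In the small subunit 5 of 26 had fallen, 24 were below 0, and 18 of 26 did not overlap. These shares of non-overlap, 75% and 69.2%, stood beside the 12.3% of all probe sets, and those fallen, 11.1% and 19.2%, beside 2.08%. In mammals the counterparts of mRpS30 and mRpS18A sit in the large subunit despite their names. With both counted there, the medians were -0.73 for the large and -0.62 for the small subunit.

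Genes classed as of families shared with bacteria and genes classed as mitochondria-specific also had close medians. By the classes of their mammalian counterparts, 41 genes belong to bacterial families and had a median difference of -0.73, with 5 of 43 probe sets fallen. The 28 genes of mitochondria-specific proteins had a median of -0.69, with 5 of 28 probe sets fallen and all 28 differences below 0. The 3 probe sets with a difference above 0, those of mRpL33, mRpS5 and mRpS9, are all of bacterial families. Within the small subunit the medians were -0.54 for 13 bacterial-family genes and -0.70 for 12 mitochondria-specific genes, and 1 and 4 of their probe sets had fallen. Over all probe sets 2.08% had fallen and 52.1% of differences were below 0. The genes named after S18 were split, with mRpS18C counted among bacterial families and mRpS18A and mRpS18B among mitochondria-specific proteins. Medians with these counted in 1 class were not computed. No test was made between the classes.

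Among the large subunit proteins, mRpL35 had the lowest difference of all members. It belongs to a small bacterial protein family. Its intensity was 52.8, 52.4 and 71.0 units on the 20E arrays, against 192, 201 and 215 on the untreated arrays. All 20E values were thus far below the untreated ones, and the difference was -1.56 ± 0.19 (SE, n = 3 per group, limma adjusted p = 0.00652). This corresponds to 34.0% of the untreated value where both include the added 16 units. The intensities without them averaged 58.7 units in 20E cells and 203 in untreated cells. This gene kept its call in 15 of the 16 other settings tried and lost it without untreated replicate 3 (adjusted p = 0.0507).

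The gene mRpL10 encodes the base of the flexible stalk that recruits translation factors. It had 215, 234 and 249 units on the 20E arrays and 423, 491 and 444 on the untreated arrays. The groups did not overlap, with a difference of -0.91 ± 0.18 (limma adjusted p = 0.0381). When 1 array was left out the call was kept in 1 case of 6 (highest adjusted p 0.161), and it held in 7 of the 16 other settings. Its partner on the stalk, mRpL12, which in the fly is also known for its part in growth driven by cyclin D and Cdk4, had 331, 312 and 397 units on the 20E arrays and 557, 456 and 602 on the untreated arrays. Its groups did not overlap either, but the difference of -0.61 ± 0.21 did not pass (limma adjusted p = 0.184, 95% interval -1.10 to -0.12). For mRpL11, at the foot of the stalk, the difference was -0.74 ± 0.23 (adjusted p = 0.148). The gene mRpL1, which forms the other stalk, where used transfer RNA leaves, differed by -0.66 ± 0.33 (adjusted p = 0.392), with an empty cell on untreated replicate 2 and thus n = 3 and 2.

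Also of bacterial families were the called genes mRpL14, from the face of the large subunit that meets the small one, and mRpL17, from the region of the tunnel exit. The intensity of mRpL14 was 283, 350 and 369 units in 20E cells and 638, 665 and 692 in untreated cells (difference -0.97 ± 0.19, limma adjusted p = 0.0377). That of mRpL17 was 210, 266 and 293 units in 20E cells and 598, 462 and 528 in untreated cells (difference -1.01 ± 0.21, limma adjusted p = 0.0464). In both, the highest 20E value was below the lowest untreated value. The call of mRpL14 held only without 20E replicate 2 when 1 array was left out, and mRpL17 had no call in any fit with 1 array fewer.

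The other genes known for the exit tunnel varied in size of difference. They were mRpL47 (of the bacterial L29 family, on 2 probe sets) at -1.24 ± 0.29 and -0.94 ± 0.25, mRpL4 at -0.86 ± 0.25, mRpL23 at -0.82 ± 0.24, mRpL24 at -0.26 ± 0.20 and mRpL22 at -0.25 ± 0.22. The adjusted p ran from 0.0671 for mRpL47 to 0.657 for mRpL22, so none passed the test. The gene mRpL45, whose mammalian counterpart ties the ribosome to the inner membrane, differed by -0.69 ± 0.41 with overlapping groups.

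Genes of the core around the peptidyl transferase centre were also uneven. For mRpL2 the difference was -0.02 ± 0.28 (limma adjusted p = 0.988, 95% interval -0.68 to 0.65). On its arrays 20E replicate 2 had 524 units, above the other 20E arrays with 271 and 314 and above the untreated arrays with 369, 317 and 396. The gene mRpL3 differed by -0.66 ± 0.20, mRpL16, whose bacterial relative touches the incoming transfer RNA, by -0.82 ± 0.18, and mRpL27 by -0.87 ± 0.22. Their adjusted p values were 0.129, 0.0527 and 0.0781, and in each the 20E values lay below the untreated ones. The gene mRpL21 missed the threshold by the least of all members, at -0.90 ± 0.20 (adjusted p = 0.0505), with 78.5, 68.8 and 97.8 units in 20E cells and 160, 172 and 163 in untreated cells.

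The gene mRpL36, of a very small bacterial protein family, differed by -1.14 ± 0.25 (limma adjusted p = 0.0545). It had 254, 203 and 300 units in 20E cells and 746, 494 and 496 in untreated cells, with untreated replicate 1 far above the other untreated arrays. The largest difference that came with overlapping groups was that of mRpL15, at -1.08 ± 0.68 (adjusted p = 0.502). Its intensity was 186, 180 and 98.3 units in 20E cells and 102, 801 and 426 in untreated cells, so the untreated arrays disagreed among themselves. The gene mRpL33, also of a small bacterial family, had the highest difference of the members, 0.36 ± 0.44 (adjusted p = 0.767, 95% interval -0.68 to 1.40). Its 20E values of 388, 163 and 579 units spread to both sides of the untreated values of 236, 226 and 320, and without 20E replicate 3 the difference was -0.0202.

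Of the 16 large subunit genes of mitochondria-specific proteins, 1 had fallen and all 16 differences were below 0, from -0.99 to -0.07. The fallen gene was mRpL51, with 175, 188 and 238 units in 20E cells and 465, 375 and 383 in untreated cells (difference -0.97 ± 0.21, limma adjusted p = 0.0478). Its groups were apart, yet the adjusted p was close to the threshold and passed on leaving out no array (highest adjusted p 0.173). The gene mRpL48 had the lowest difference of this class, -0.99 ± 0.28 (adjusted p = 0.115), with 162, 88.7 and 163 units in 20E cells and 343, 239 and 269 in untreated cells. For mRpL44, which carries a fold related to RNase III, mRpL49 and mRpL46 the differences were -0.93 ± 0.22, -0.93 ± 0.22 and -0.91 ± 0.22, with adjusted p from 0.0682 to 0.0749. The smallest difference of the class was that of mRpL50, -0.07 ± 0.25 (adjusted p = 0.936).

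The remaining large subunit genes filled the range between these. Of bacterial families, mRpL20, which helps to fold ribosomal RNA in bacteria, differed by -0.89 ± 0.24, mRpL18 by -0.73 ± 0.34, mRpL32 by -0.70 ± 0.20, mRpL19 by -0.59 ± 0.26 and mRpL13 by -0.46 ± 0.18, all with 20E values below the untreated ones. The gene mRpL30 differed by -0.73 ± 0.31 and had 405, 763 and 522 units in 20E cells and 684, 1162 and 960 in untreated cells, so 20E replicate 2 lay above the lowest untreated array. The groups of mRpL28 (-0.41 ± 0.24) and mRpL9 (-0.18 ± 0.21) overlapped. Of the mitochondria-specific genes, mRpL54, mRpL42, mRpL55 and mRpL52 lay between -0.82 and -0.62, and mRpL39, mRpL40, mRpL41, mRpL43 and mRpL38 between -0.55 and -0.36. None of these 17 genes passed the test, and their adjusted p ran from 0.0957 to 0.743.

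**Figure D3:**
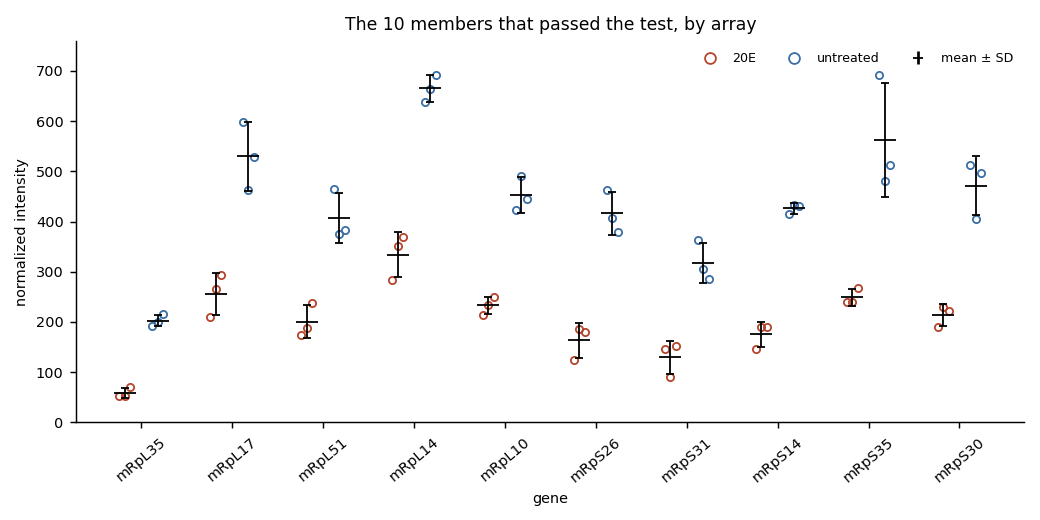
Normalized intensity of the 10 members with an adjusted p under 0.05 is plotted on a linear axis from 0, with 20E arrays left of untreated arrays for each gene and the mean ± SD of 3 arrays in black. In all 10 genes the 3 values of 20E cells lie below the 3 values of untreated cells, for example at most 71.0 against at least 192 units for mRpL35.

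In the small subunit, mRpS26 and mRpS31, of proteins specific to mitochondria, had the lowest differences. The intensity of mRpS26 was 124, 186 and 181 units in 20E cells and 463, 407 and 378 in untreated cells. The gap between the groups exceeded the spread within either, and the difference was -1.28 ± 0.22 (SE, n = 3 per group, limma adjusted p = 0.0234). For mRpS31 the values were 145, 90.8 and 152 units in 20E cells and 363, 306 and 285 in untreated cells (difference -1.22 ± 0.25, limma adjusted p = 0.0387), with 20E replicate 2 the lowest array.

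Also of mitochondria-specific proteins, mRpS35 had 239, 240 and 268 units in 20E cells and 692, 481 and 513 in untreated cells. The difference was -1.11 ± 0.21 (limma adjusted p = 0.0326), with untreated replicate 1 the highest array by a wide margin. For mRpS30 the values were 189, 230 and 222 units in 20E cells and 512, 404 and 497 in untreated cells (difference -1.08 ± 0.20, limma adjusted p = 0.0275). The 20E values of both genes stayed within a narrow band. When 1 array was left out, the call of mRpS35 was lost in each case, and those of mRpS30, mRpS26 and mRpS31 were kept in 1 case of 6.

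The one bacterial-family gene of the small subunit that had fallen was mRpS14, whose bacterial relative lies in the head of the subunit. It had 146, 190 and 190 units in 20E cells and 414, 433 and 431 in untreated cells, the closest untreated values of the 10 called genes in relative terms. The difference was -1.22 ± 0.19 (limma adjusted p = 0.0161), and it kept its call in 12 of 16 other settings. The gene mRpS21 came near, at -0.997 ± 0.24 (adjusted p = 0.0697), with 305, 286 and 446 units in 20E cells and 808, 636 and 647 in untreated cells. In bacteria S21 lies on the platform of the small subunit together with S11, S6 and S18. The 2 probe sets of mRpS11 differed by -1.07 ± 0.38 and -0.81 ± 0.26, mRpS18C by -0.71 ± 0.38 and mRpS6 by -0.30 ± 0.19, and none of these passed (adjusted p from 0.151 to 0.488).

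The genes mRpS5 and mRpS9 stood on the other side of 0. Bacterial S5 lines the entry of the messenger RNA and takes part in accurate decoding, and bacterial S9 contacts the transfer RNA in the peptidyl site. For mRpS5 the intensity was 509, 372 and 518 units in 20E cells and 466, 358 and 331 in untreated cells (difference 0.27 ± 0.23, limma adjusted p = 0.647, 95% interval -0.28 to 0.82). For mRpS9 it was 241, 403 and 271 units in 20E cells and 289, 248 and 287 in untreated cells (difference 0.11 ± 0.24, adjusted p = 0.884), with 20E replicate 2 alone above the untreated range. Neither gene was shown to change or to stay unchanged, since both 95% intervals span 0, that of mRpS9 from -0.46 to 0.68. Without 20E replicate 2 the difference of mRpS9 was -0.0996. Of the messenger RNA entry too, mRpS24, of the bacterial S3 family, differed by -0.90 ± 0.21 (adjusted p = 0.0597), with groups that did not overlap. The gene mRpS29, whose mammalian counterpart is the GTP-binding protein DAP3, differed by -0.36 ± 0.35 (adjusted p = 0.687) with overlapping groups.

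The rest of the small subunit genes gave no call. The bacterial families S16 and S17, which bind ribosomal RNA in the body of the subunit, were represented by mRpS16 at -0.76 ± 0.28 and mRpS17 at -0.54 ± 0.21. The gene mRpS7, from the head, differed by -0.51 ± 0.21 and mRpS2 by -0.35 ± 0.23, and in all these 4 genes the groups did not overlap, although mRpS2 had 126 units on 20E replicate 3 and 127 on the lowest untreated array. The gene mRpS28 differed by -0.14 ± 0.20 with overlapping groups. Of the genes classed as mitochondria-specific, mRpS33, mRpS18A, mRpS23 and mRpS18B ran from -0.73 to -0.51 without overlap, and mRpS34 (-0.33 ± 0.20) and mRpS22 (-0.31 ± 0.23) overlapped. The gene mRpS25 differed by -0.71 ± 0.35, with 261, 673 and 359 units in 20E cells and 757, 628 and 613 in untreated cells. Its 20E replicate 2 thus lay within the untreated range. That array also stood above the other 20E arrays in further members, mRpL2, mRpL30 and mRpS9 among them. Its median over the member genes, at -0.79 relative to the untreated mean, was nevertheless the lowest of the 20E arrays.

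Agreement between probe sets of 1 gene could be checked for mRpL47 and mRpS11 only. All 4 probe sets had 20E values below the untreated values and none passed the test. For mRpL47 the brighter probe set had 320, 284 and 405 units in 20E cells and 857, 540 and 605 in untreated cells. For mRpS11 the brighter had 131, 85.9 and 155 units in 20E cells and 261, 197 and 218 in untreated cells.

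The other genes of mitochondrial translation were described in the same way. Of 29 probe sets for 28 genes of translation factors, transfer RNA enzymes and the ribosomal proteins with historical names, 5 had fallen and none had risen, 23 differences were below 0, against 52.1% of all probe sets, and the median was -0.31. The called genes were mEFTs, OXA1L, tko, mEFTu1 and mEFG1, and the background of 2.08% fallen applies here too. On leaving out 1 array, calls were counted only together with the mitochondrial DNA and RNA genes described below. This joint count was 0 without 20E replicate 1, 1 without 20E replicate 3, 1 without untreated replicate 1, 0 without untreated replicate 2 and 0 without untreated replicate 3. The shares of all probe sets called lower in these fits are given above with the members. The elongation factor gene mEFTs recharges the factor that delivers transfer RNA, encoded by mEFTu1. It averaged 80.8 ± 28.9 units in 20E cells and 229 ± 10.4 in untreated cells (SD, n = 3 each, difference -1.39 ± 0.26, limma adjusted p = 0.0301). The delivery factor gene mEFTu1 averaged 213 ± 13.8 units in 20E cells and 500 ± 106 in untreated cells (-1.15 ± 0.21, limma adjusted p = 0.0300). For mEFG1, whose product moves the ribosome along, the means were 71.0 ± 14.3 units in 20E cells and 153 ± 6.36 in untreated cells (-0.97 ± 0.20, limma adjusted p = 0.0417).

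The insertase gene OXA1L, whose protein places newly made chains in the inner membrane, averaged 84.5 ± 7.59 units in 20E cells and 228 ± 39.8 in untreated cells (-1.27 ± 0.20, limma adjusted p = 0.0169). The gene tko encodes the mitochondrial S12 protein and is known in the fly for bang-sensitive paralysis. It had 148, 133 and 237 units in 20E cells and 487, 392 and 363 in untreated cells (-1.22 ± 0.26, adjusted p = 0.0497). The gene bonsai, for the S15 protein, differed by -0.34 (adjusted p = 0.492). Both are ribosomal proteins that the symbol rule leaves out. The recycling factor genes mRRF1 and mRRF2 had the highest differences of the list, 0.54 and 0.42 (adjusted p = 0.396 and 0.570).

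Genes that copy, transcribe and process mitochondrial DNA and RNA gave no call in 18 probe sets, with 16 differences below 0 and a median of -0.42. At an unadjusted p under 0.05, limma had 6 of them lower and none higher, or 33.3% against 8.4% of all probe sets, and the 16 below 0 stand beside 52.1% of all. The lowest was PolG1, the catalytic subunit of the mitochondrial DNA polymerase, with 29.0 ± 17.1 units in 20E cells and 125 ± 45.6 in untreated cells (-1.69 ± 0.38, adjusted p = 0.0572). For mtDNA-helicase the difference was -1.13 ± 0.30 (adjusted p = 0.0917) and for TFAM, which packs and transcribes mitochondrial DNA, -0.79 (adjusted p = 0.0924).

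Set beside the nearest gene groups, the members had the lowest median. Genes of the nuclear-encoded respiratory chain and ATP synthase, which contain the partners of what mitochondrial ribosomes make, had a median of -0.44 over 71 genes. Of their 80 probe sets 2 had fallen, or 2.5% against 2.08% of all probe sets, those of Cyt-c1 (-1.02 ± 0.19, limma adjusted p = 0.0325) and COX5A (-0.96 ± 0.21, adjusted p = 0.0495), none had risen and 73 differences were below 0, against 52.1% of all probe sets. Of complex I, ND-75 averaged 148 ± 35.7 units in 20E cells and 320 ± 101 in untreated cells (-1.02 ± 0.29, limma adjusted p = 0.112). The lowest difference of the list was that of ND-B8, -1.53 ± 0.37 (limma adjusted p = 0.0743), a dim probe set with 2.65 ± 14.1 units in 20E cells and 45.5 ± 17.3 in untreated cells. Cytosolic ribosomal protein genes had a median of -0.03 over 41 genes (0.0016 with no normalization between arrays), with 28 of 47 differences below 0, or 59.6% against the 52.1% of all. Their median normalized intensity was 5213 to 5571 units per array, where the highest deposited value of an array was 9083 to 10358. Whether signals this high narrow the differences was not tested. The calls on this list were RpS19b, which rose by 1.59 ± 0.23 (adjusted p = 0.0116), and RpLP0-like, at -2.29 ± 0.34 (adjusted p = 0.0122), so 2 of 47 were called against 5.1% of all probe sets in either direction. The gene RpLP0-like, as RpL24-like and RpL7-like on the same list, is only named after a ribosomal protein. Whether its product is part of the cytosolic ribosome was not examined. The calls of both groups together, 4 here, numbered 1 without 20E replicate 1, 1 without 20E replicate 3, 2 without untreated replicate 1, 1 without untreated replicate 2 and 0 without untreated replicate 3. Non-overlap with lower 20E values was seen in 57.9% of respiratory chain probe sets and 17% of cytosolic ribosomal protein probe sets, beside the 72.9% of the members. The share was 12.3% of all probe sets and 16.7% of those at or above the median level, so that of the cytosolic list was near the latter. All 71 member probe sets lay at or above the median level of the arrays, against 63 of 80 respiratory chain probe sets. It was 21 of 29 for translation factors and transfer RNA enzymes, 14 of 18 for mitochondrial DNA and RNA genes and 42 of 47 for cytosolic ribosomal proteins. Dim probe sets stood on the respiratory chain list, such as that of COX5BL with 8.62 units in 20E cells and 9.36 in untreated cells. Some were of genes with the name of a subunit and an added L, such as COX5BL, COX4L and COX7AL. Whether the products of such genes are part of the respiratory chain was not examined. The part of dim probe sets and of these genes in the medians was not tested. The groups were described side by side without a test between them, and levels of different probe sets were not compared further.

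**Figure D4:**
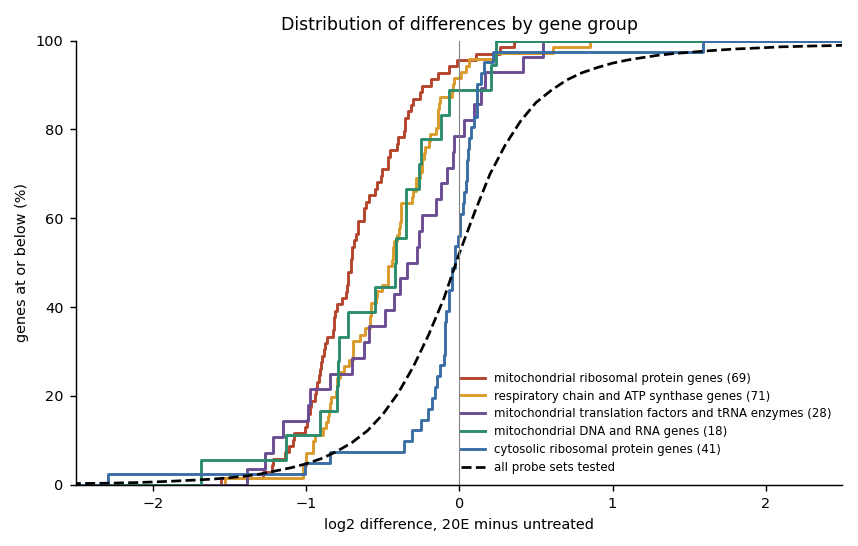
The cumulative share of genes at or below each log2 difference, 20E minus untreated, is drawn for 5 gene groups with the number of genes in brackets, and as a dashed line for all probe sets tested. The line of the mitochondrial ribosomal protein genes lies furthest left through most of its height (median -0.71), that of the cytosolic ribosomal protein genes rises steeply at 0 (median -0.03).

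The median of the members was below that of all probe sets under each of the 16 other settings of the fit that were tried on all lists. It ran from -0.83 to -0.54, against -0.06 to 0.06 for all probe sets. The smallest size came without normalization between arrays, where the median of the large subunit was -0.55 and that of the small subunit -0.50.

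**Figure D5:**
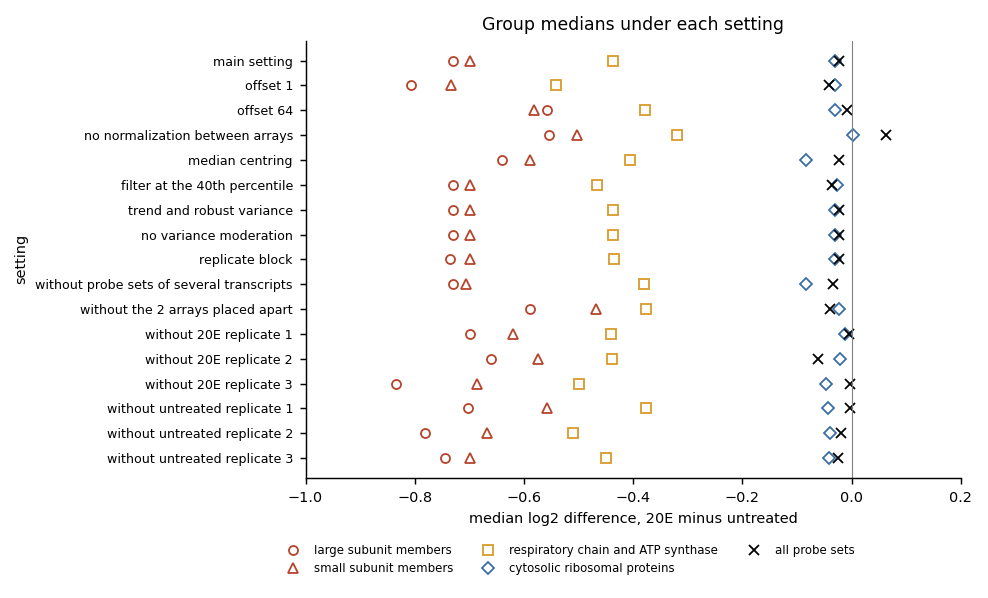
The median log2 difference, 20E minus untreated, is plotted for 5 groups under 17 settings, one per row, with circles and triangles for large and small subunit members. Both subunits lie left of respiratory chain, cytosolic ribosomal protein and all probe sets in each row; large and small subunit medians run from -0.83 to -0.55 and from -0.73 to -0.47.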

How the data were processed

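The 6 arrays, 3 of S2* cells with 20E and 3 without, were grouped by their titles. The deposited values are linear intensities of 18769 probe sets, some below 0 on each array. How the authors summarised probes, corrected background and scaled arrays is not given in the sources used here. Intensities were quantile normalized, values below 0 were set to 0, and log2(intensity + 16) was taken. Quantile normalization removes a shift shared by most transcripts. Quoted intensities precede the floor. Groups were compared with limma 3.58.1 in R 4.3.3 (two-sided, Benjamini-Hochberg over all probe sets tested, threshold 0.05). The fit was checked on simulated data with independent noise for each value, for the mean size of planted changes only. Whether calls are reliable on these arrays was not checked by it.

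Gene names came from a platform annotation, updated through a RefSeq gene table (Release 6 plus ISO1 MT), in which 13544 of 13647 single-gene probe sets were found. For a gene with several probe sets, the brightest on average entered medians. The members, lists, classes and tests were chosen with earlier results of these data known. Genes are named where a probe set passed, where the difference was among the 6 lowest below 0 or 6 highest above 0 of a subunit, or, for mRpL12 and mRpS5, whatever their values; other members were named after their values were seen. No list was tested as a set.

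Replicate numbers shared by the groups were not taken as pairs. Alternatives were other offsets and normalizations, a filter, other variance models, a replicate block, fewer probe sets and fewer arrays. The number of arrays limits the precision.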

Additional observations from a re-analysis of the deposited data

How the results depend on the processing

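The medians of the members and of both subunits stayed below 0 in every setting tried, whereas the counts of calls changed. With no normalization between arrays the median turned above 0 for all probe sets (0.06) and for cytosolic ribosomal protein genes (0.0016). Called members numbered 2 with an offset of 1 and 23 with one of 64, beside 1.05% and 2.98% of all probe sets called lower. The count was 5 with no normalization between arrays and 4 with median centring, beside 1.64% and 1.56%. It was 18 with a filter at the 40th percentile, beside 4.08%, and 4 with no variance moderation, beside 0.799%. The replicate block gave 2, beside 1.97%, and leaving out 1 array gave 0 to 9, beside 0.496% to 2.13%. The filter tests fewer probe sets. Other causes were not tested. Deviations of same-numbered arrays correlated at 0.238, 0.374 and -0.0202. The 20E arrays of replicates 1 and 2 correlated best with the untreated array of their own number, and that of replicate 3 with untreated replicate 1. With so few arrays this check cannot decide whether the numbers mark pairs. Under the replicate block called members were 2, against 10 without it. The block gave 954 called probe sets in all, against 957 without it. That total was 567 with an offset of 1, 397 with no moderation, 629 without probe sets of several transcripts, 2183 without the 2 arrays placed apart and 326 to 1173 on leaving out 1 array. Of it, 567 were higher and 390 lower, against 723 and 307 with no normalization. The median over the genes was -0.56 with an offset of 64, -0.54 with no normalization and -0.83 to -0.62 on leaving out 1 array. For the large subunit it was -0.56, -0.55 and -0.83 to -0.66 in the same settings, and -0.59 without the 2 arrays placed apart. For the small subunit it was -0.50 with no normalization, -0.47 without those 2 arrays and -0.70 to -0.56 on leaving out 1 array. Medians were the same with the mean over probe sets and with updated symbols. Calls among mitochondrial translation and genome expression genes, 5 here, numbered 1, 8, 3, 1 and 3 with an offset of 1, an offset of 64, median centring, no variance moderation and without probe sets of several transcripts, and 0 to 4 on leaving out 1 array. Calls among cytosolic ribosomal and respiratory chain genes, 4 here, numbered 2, 17, 2, 2, 9, 16, 1 and 2 with an offset of 1, an offset of 64, no normalization, median centring, the filter, trend and robust variance, no moderation and the replicate block, and 0 to 6 on leaving out 1 array. Differences turned below 0 for mRpS9 without the 2 arrays placed apart (-0.0647) or on leaving out 1 array (-0.0996 to 0.255), and for mRpL33 without 20E replicate 3 (-0.0202; range on leaving out 1 array -0.0202 to 0.839). The grouping by mammalian structures was added after the data were seen. No detection calls were used here, so signal over background was not measured.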
